A study of Mus musculus with 6 samples.

Results

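The genes of the type I interferon response were followed through 6 RNA-seq libraries of cultured mouse dermal fibroblasts, 3 labelled TSP2KO and 3 labelled WT. The list holds 34 named interferon-stimulated genes, picked by symbol, and each of the 34 was among the 23407 genes of the deposited table. Type I interferons are secreted cytokines that cells release when they sense foreign nucleic acid, and most cell types also keep a weak tonic signal. Their receptor activates the kinases JAK1 and TYK2, which phosphorylate STAT proteins. STAT2 and IRF9 are parts of the resulting complex ISGF3, which binds the interferon-stimulated response element (ISRE) in target promoters. The induced proteins sense, degrade or block viral RNA and particles, and some of them feed back on the pathway.

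TSP2KO stands for cells lacking thrombospondin-2, a matricellular glycoprotein encoded by Thbs2, and WT for wild type. All cells came from dorsal skin of mice aged 12 weeks (3 months in the sample titles), were freed with trypsin and collagenase, grown for 3 to 5 days in medium with serum and harvested at passage 1. The labels name no interferon, virus or other treatment for either genotype, no strain, and no construct for the Thbs2 mutation. They do not say whether the libraries of a genotype came from separate animals, so p-values measure how these libraries vary, a spread that may be technical.

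Estimated depth lay between 14776502 and 34599855 reads per library. Thbs2 had 5177, 6635 and 4891 normalised reads in TSP2KO 1, TSP2KO 2 and TSP2KO 3, against 122061 and 116720.0 in WT 1 and WT 2 and 8841 in the library labelled WT 3, so this last library went against its label, and it is called the library labelled WT 3 throughout. It stayed in the WT group, and each result below is given with and without it where it matters. Values are the authors' normalised reads per gene, scaled between libraries but not by gene length. Fold changes are differences of mean log2(normalised reads + 1), TSP2KO minus WT, tested by limma over the 14707 genes with a mean of at least 10, and a gene passed at an adjusted p under 0.05.

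The response as a whole followed an order of libraries that cut across the genotype labels. TSP2KO 1 and TSP2KO 3 were the lowest pair of the 6 libraries for 27 of the 34 genes, against 8.25% of all genes tested. WT 2 was the highest for 30, against 18.4%, and WT 1 the second highest for 28, against 18.2%. TSP2KO 2 and the library labelled WT 3 lay between, at much the same level as each other. Summed over the 34 genes, TSP2KO 1, TSP2KO 2 and TSP2KO 3 had 7328, 15464 and 8017 normalised reads, against 25044 and 38384 in WT 1 and WT 2 and 13286 in the library labelled WT 3. That was 0.0633%, 0.135% and 0.0609% of all normalised reads in the TSP2KO libraries, against 0.195% and 0.283% in WT 1 and WT 2 and 0.113% in the library labelled WT 3. The TSP2KO and WT sums therefore overlapped, since the library labelled WT 3 was lower than TSP2KO 2.

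**Figure D1:**
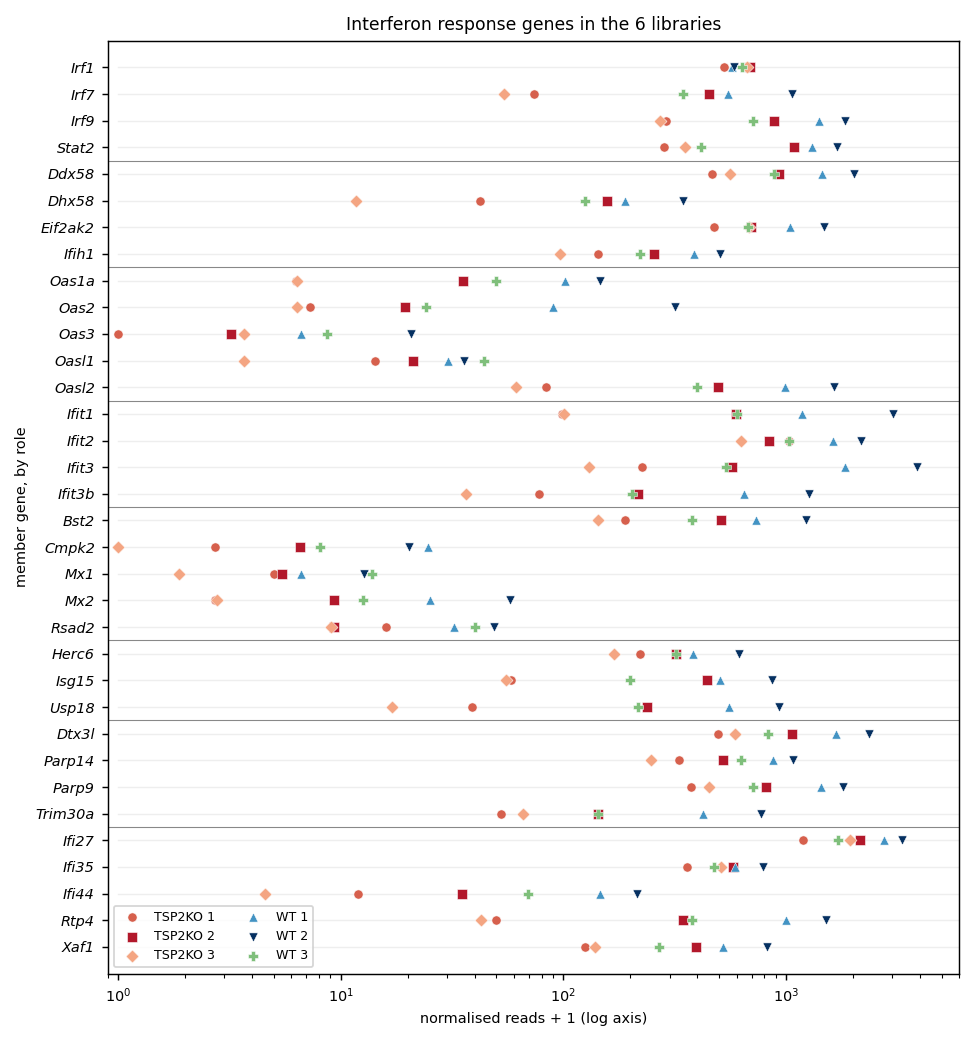
Normalised reads plus 1 (log axis) of the 34 interferon response genes, grouped by role and parted by grey lines, with 1 symbol per library. TSP2KO 1 and TSP2KO 3 lie to the left for most genes, WT 1 and WT 2 to the right, and TSP2KO 2 and the library labelled WT 3 between them.

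Of the 34 genes, 31 reached the mean of 10 needed for testing, and 30 of these had a negative log2 fold change, against 51.5% of all genes tested. Mx2 reached that mean through the WT libraries, so counts over the tested genes describe them and do not stand for all 34. The median log2 fold change was -1.81, against -0.01 over all genes tested, and 25 of the 31 lay below -1. None of the 31 passed the threshold in either direction with all 6 libraries, where 0.0612% of all genes passed as lower and 0% as higher. At an unadjusted p under 0.05, 25 of the 31 were lower in TSP2KO, against 6.09% of all genes. The smallest limma adjusted p among them was 0.190, for Rsad2. With the library labelled WT 3 left out, 9 of the 31 passed as lower, against 2.75% of all genes, and 0 as higher, against 2.43%. These 9 were Ifit2, Ifit3, Ifit3b, Oas2, Ifi44, Ddx58, Parp9, Parp14 and Trim30a.

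Groups did not overlap for 9 of the 31 tested genes, each lower in TSP2KO, which is 29.0% against 8.27% of all genes tested. None of the 31 was higher without overlap, against 5.9% of all genes tested. With the 3 genes under the filter the count of lower ones was 12 of 34. WT 1 and WT 2 both lay above every TSP2KO library for 30 of the 31, against 22.3% of all genes tested. WT 2 was highest and WT 1 second for 28 of the 31, against 9.15% of all genes tested. Irf1 and Ifit2 aside, a gene's groups overlapped where TSP2KO 2 lay above the library labelled WT 3 and not elsewhere.

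**Figure D2:**
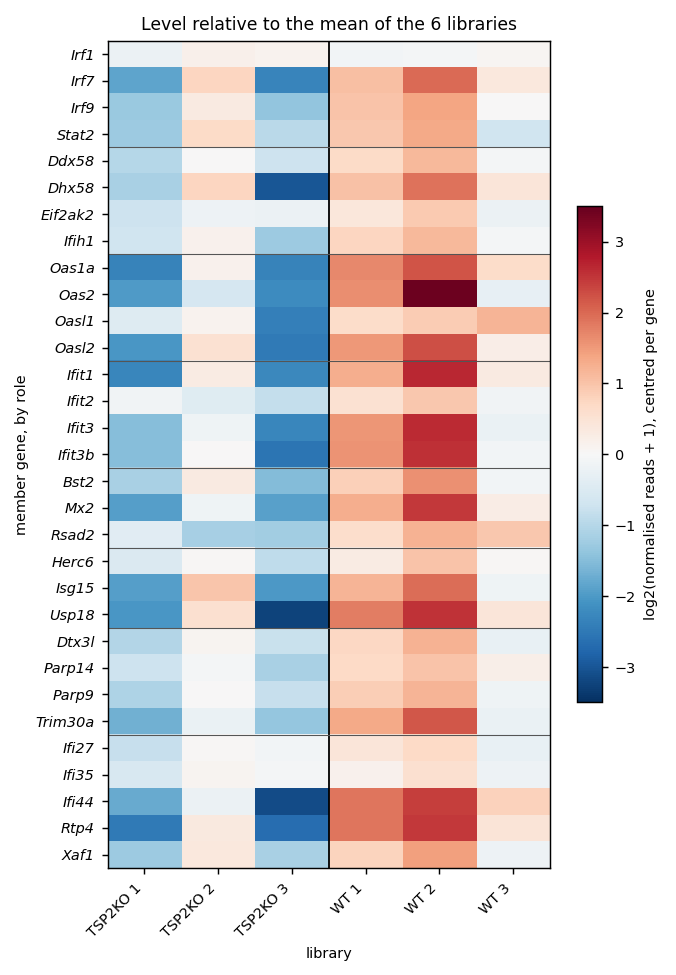
Level of the 31 tested genes (rows, by role) in each library (columns), as log2(normalised reads + 1) minus the gene's mean over the 6 libraries; red is above and blue below that mean. TSP2KO 1 and TSP2KO 3 are blue and WT 1 and WT 2 red for nearly every gene, TSP2KO 2 and the library labelled WT 3 are pale, and Irf1 at the top is pale throughout.

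Libraries of 1 genotype also lay far apart. TSP2KO 2 lay above TSP2KO 1 by a median log2 difference of 1.44 over the 31 genes, and above TSP2KO 3 by 1.62. The widest of these gaps was that of Usp18, 3.80 above TSP2KO 3. Within WT, the library labelled WT 3 lay below WT 1 by a median of 0.96 and below WT 2 by 1.55, with Oas2 farthest below, at -1.89 and -3.72. WT 2 lay above WT 1 for each of the 31 genes, by a median of 0.59. Over all genes tested, the medians of these 5 differences lay between -0.04 and 0.05. Between TSP2KO 2 and the library labelled WT 3 the median difference was 0.10, and it ran from -2.10 for Rsad2 to 1.37 for Stat2.

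The promoters of a few of these genes are shown because they hold the elements through which the response is known to act. RefSeq promoter windows on GRCm38.p6, from 250 bases before to 50 after a start, were at hand for 25 of the 34 genes, not for Ifi27, Parp9, Usp18, Mx2, Dhx58, Oas2, Mx1, Parp14 and Rtp4. The core of the ISRE was searched as GAAANNGAAA and the gamma-activated site (GAS), which binds STAT dimers, as TTCNNNGAA, both on either strand and with overlapping matches allowed. The ISRE core was in a window of 13 of the 25 genes, 48.3% of their windows against 3.44% of all windows. The GAS letters were in a window of 6, 20.7% against 8.30%. The 200 bases before the start are printed 5′ to 3′ on the gene's strand, with matches in capitals: the ISRE core in the first 5, the GAS in Irf1.
Ifit1: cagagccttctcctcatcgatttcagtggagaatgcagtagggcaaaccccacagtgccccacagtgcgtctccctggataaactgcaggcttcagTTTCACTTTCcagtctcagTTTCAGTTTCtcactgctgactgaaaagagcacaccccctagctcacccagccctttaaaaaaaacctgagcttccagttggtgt
Ifit3: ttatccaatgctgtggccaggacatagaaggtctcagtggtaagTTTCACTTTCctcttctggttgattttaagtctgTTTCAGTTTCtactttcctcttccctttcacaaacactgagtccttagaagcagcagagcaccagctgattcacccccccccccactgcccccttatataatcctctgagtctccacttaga
Ifit3b: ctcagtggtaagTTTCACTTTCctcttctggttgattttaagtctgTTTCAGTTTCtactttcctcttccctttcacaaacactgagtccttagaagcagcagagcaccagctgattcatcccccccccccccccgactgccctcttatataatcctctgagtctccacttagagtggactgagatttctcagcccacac
Isg15: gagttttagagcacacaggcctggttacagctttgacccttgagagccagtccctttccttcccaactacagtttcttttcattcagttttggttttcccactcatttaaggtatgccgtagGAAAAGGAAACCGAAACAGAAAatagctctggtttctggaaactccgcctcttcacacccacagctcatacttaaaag
Oas1a: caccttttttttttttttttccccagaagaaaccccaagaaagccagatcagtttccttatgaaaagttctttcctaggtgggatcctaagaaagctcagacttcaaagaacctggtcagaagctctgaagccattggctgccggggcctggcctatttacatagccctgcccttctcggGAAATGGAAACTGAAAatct
Irf1: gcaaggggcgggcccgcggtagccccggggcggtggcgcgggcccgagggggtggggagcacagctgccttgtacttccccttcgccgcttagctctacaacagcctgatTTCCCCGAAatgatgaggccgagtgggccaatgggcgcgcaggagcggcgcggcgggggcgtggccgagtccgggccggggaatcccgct

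These stretches lie at chr19:34640689-34640888, plus strand (Ifit1), chr19:34583329-34583528, plus strand (Ifit3), chr19:34607757-34607956, plus strand (Ifit3b), chr4:156200819-156201018, minus strand (Isg15), chr5:120907526-120907725, minus strand (Oas1a) and chr11:53769814-53770013, plus strand (Irf1). Ifit1, Ifit3 and Ifit3b each held the same pair of matches, TTTCACTTTC and then TTTCAGTTTC. The first began 104 bases before the start in Ifit1, 156 in Ifit3 and 188 in Ifit3b. Isg15 held 3 overlapping matches from 78 bases before its start, and Oas1a 2 overlapping ones from 20 before. Irf1 held TTCCCCGAA, from 90 bases before its start, and no match to the ISRE core in either of its windows. A match is a run of letters and was not tested as a binding site.

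Among the transcription factors, Irf7, Irf9 and Stat2 followed the order of libraries and Irf1 did not. Irf7, the factor that amplifies interferon gene expression, had 73.0, 449.8 and 53.4 normalised reads in TSP2KO 1, TSP2KO 2 and TSP2KO 3, against 549.5 and 1064 in WT 1 and WT 2 and 344 in the library labelled WT 3 (log2 fold change -2.27 with SE 0.81, adjusted p = 0.412 by limma). TSP2KO 2 lay between WT 1 and the library labelled WT 3 here, while TSP2KO 1 and TSP2KO 3 were the low pair. Irf9, the DNA-binding subunit of ISGF3, had 287, 885 and 269.8 normalised reads in TSP2KO 1, TSP2KO 2 and TSP2KO 3, against 1406 and 1836 in WT 1 and WT 2 and 711 in the library labelled WT 3 (log2 fold change -1.58 with SE 0.53, adjusted p = 0.384 by limma). Stat2, which binds IRF9 in ISGF3, had 282, 1079.7 and 352 normalised reads in TSP2KO 1, TSP2KO 2 and TSP2KO 3, against 1309.7 and 1697 in WT 1 and WT 2 and 416 in the library labelled WT 3 (log2 fold change -1.03 with SE 0.66, adjusted p = 0.694 by limma). The library labelled WT 3 sat with TSP2KO 1 and TSP2KO 3 for Stat2, below TSP2KO 2. Without it the log2 fold change of Stat2 was -1.65 (SE 0.54, adjusted p = 0.121 by limma).

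Irf1, a factor induced by interferon gamma and by NF-kappaB as well as by type I interferon, was the flattest of the genes. It had 526, 686 and 669 normalised reads in TSP2KO 1, TSP2KO 2 and TSP2KO 3, against 569 and 581 in WT 1 and WT 2 and 635 in the library labelled WT 3. Its highest library was 1.31-fold above its lowest, the narrowest range of the 34, and the groups overlapped. The means were 627 ± 88.1 in TSP2KO and 595 ± 35.1 in WT (SD, n = 3 each) (log2 fold change 0.07 with SE 0.18, adjusted p = 0.943 by limma). The log2 fold change changed sign, to -0.0040, when TSP2KO 2 was left out.

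The RNA sensors had negative log2 fold changes with a median of -1.17 over the 4. Ddx58, which encodes RIG-I, the sensor of RNA ends, had 462, 926 and 561 normalised reads in TSP2KO 1, TSP2KO 2 and TSP2KO 3, against 1456 and 2012 in WT 1 and WT 2 and 880.1 in the library labelled WT 3 (log2 fold change -1.14 with SE 0.37, adjusted p = 0.362 by limma). Without the library labelled WT 3 it passed the threshold, at -1.46 (SE 0.32, adjusted p = 0.0487 by limma). Ifih1, which encodes MDA5, the sensor of long double-stranded RNA, had 142, 255 and 95.3 normalised reads in TSP2KO 1, TSP2KO 2 and TSP2KO 3, against 385 and 502 in WT 1 and WT 2 and 219 in the library labelled WT 3. Both genes showed WT 2 and WT 1 on top and overlap of the groups through TSP2KO 2. Dhx58, encoding LGP2, a regulator of these sensors, had 41.4, 156 and 10.7 normalised reads in TSP2KO 1, TSP2KO 2 and TSP2KO 3, against 189 and 344 in WT 1 and WT 2 and 124 in the library labelled WT 3 (log2 fold change -2.24 with SE 0.89, adjusted p = 0.466 by limma). Its highest library, WT 2, was 32.2-fold above its lowest, TSP2KO 3, the widest range of the 4 sensors. Eif2ak2 encodes PKR, a kinase that stops translation on double-stranded RNA, and had 472, 694 and 678 normalised reads in TSP2KO 1, TSP2KO 2 and TSP2KO 3, against 1036 and 1474 in WT 1 and WT 2 and 673 in the library labelled WT 3 (log2 fold change -0.74 with SE 0.31, adjusted p = 0.514 by limma). TSP2KO 2, TSP2KO 3 and the library labelled WT 3 were level for Eif2ak2.

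The OAS genes make the oligoadenylate synthetases that switch on RNase L, and their relatives Oasl1 and Oasl2. Oasl2, the most abundant of the 5 per length, had 82.7, 492 and 60.5 normalised reads in TSP2KO 1, TSP2KO 2 and TSP2KO 3, against 983 and 1632 in WT 1 and WT 2 and 398 in the library labelled WT 3 (log2 fold change -2.66 with SE 0.84, adjusted p = 0.347 by limma). Oas1a ranged over 5.29 to 34.5 normalised reads in TSP2KO and 49.1 to 145 in WT (log2 fold change -3.02 with SE 0.76, adjusted p = 0.246 by limma), and Oas2 over 5.34 to 18.5 normalised reads in TSP2KO and 23.1 to 317 in WT (log2 fold change -3.19 with SE 0.93, adjusted p = 0.311 by limma). For both genes the groups did not overlap, and 57.6% of the 50-base windows of the Oas1a transcripts were also in those of Oas1g, so the level of Oas1a is uncertain. Without the library labelled WT 3, Oas2 passed at -4.12 (SE 0.70, adjusted p = 0.0279 by limma), the most negative value of the 31. Oasl1, a repressor of Irf7 translation in mice, had 13.2, 20.1 and 2.67 normalised reads in TSP2KO 1, TSP2KO 2 and TSP2KO 3, against 29.4 and 34.9 in WT 1 and WT 2 and 43.0 in the library labelled WT 3 (log2 fold change -1.81 with SE 0.67, adjusted p = 0.437 by limma). Its highest library was the one labelled WT 3, in contrast with Oasl2 and Oas2. Oas3 was under the filter, between 0 and 2.67 normalised reads in TSP2KO and 5.67 to 19.6 in WT, where 1 read was worth 0.392 to 0.890 normalised reads.

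The IFIT genes encode tetratricopeptide proteins that bind foreign RNA. They lie in 1 cluster on chromosome 19 (mm10), with Ifit2 at chr19:34550694-34576419, Ifit3 at chr19:34583531-34588731, Ifit3b at chr19:34607970-34613401 and Ifit1 at chr19:34640871-34650009, all on the plus strand. Ifit1, which binds capped RNA that lacks ribose methylation, had 97.6, 593 and 99.6 normalised reads in TSP2KO 1, TSP2KO 2 and TSP2KO 3, against 1172 and 3009.9 in WT 1 and WT 2 and 604 in the library labelled WT 3 (log2 fold change -2.83 with SE 0.82, adjusted p = 0.31 by limma). Groups did not overlap, but TSP2KO 2 and the library labelled WT 3 were nearly level. Ifit3 had 225, 573 and 129 normalised reads in TSP2KO 1, TSP2KO 2 and TSP2KO 3, against 1841 and 3869 in WT 1 and WT 2 and 535 in the library labelled WT 3 (log2 fold change -2.61 with SE 0.79, adjusted p = 0.325 by limma). Its neighbour Ifit3b had 76.4, 215 and 35.4 normalised reads in TSP2KO 1, TSP2KO 2 and TSP2KO 3, against 647 and 1263 in WT 1 and WT 2 and 202 in the library labelled WT 3 (log2 fold change -2.70 with SE 0.81, adjusted p = 0.325 by limma). The same order of libraries held in both, and without the library labelled WT 3 both passed, Ifit3 at -3.38 (SE 0.61, adjusted p = 0.0317 by limma) and Ifit3b at -3.42 (SE 0.70, adjusted p = 0.0424 by limma).

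The level of Ifit3 was 2.66- to 3.65-fold that of Ifit3b in TSP2KO and 2.65- to 3.06-fold in WT. Their transcripts share sequence, since 51.2% of the 50-base windows of the Ifit3 transcripts were also in those of Ifit3b, so the split of reads between the pair is uncertain. Ifit2, whose product binds AU-rich RNA, stood out in the cluster. It had 1033, 836 and 625 normalised reads in TSP2KO 1, TSP2KO 2 and TSP2KO 3, against 1616 and 2169 in WT 1 and WT 2 and 1030.2 in the library labelled WT 3 (log2 fold change -0.91 with SE 0.31, adjusted p = 0.398 by limma). TSP2KO 1 and the library labelled WT 3 were level for Ifit2, and TSP2KO 1 was the highest of the TSP2KO libraries, where it was among the low pair for the other 3 genes. Without the library labelled WT 3 Ifit2 passed, at -1.20 (SE 0.26, adjusted p = 0.0474 by limma).

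The ISG15 system attaches the ubiquitin-like protein ISG15 to other proteins. Isg15 itself had 57.5, 439 and 54.3 normalised reads in TSP2KO 1, TSP2KO 2 and TSP2KO 3, against 504 and 867 in WT 1 and WT 2 and 199 in the library labelled WT 3 (log2 fold change -1.98 with SE 0.88, adjusted p = 0.527 by limma). TSP2KO 2 was above the library labelled WT 3 and near WT 1, and TSP2KO 1 and TSP2KO 3 were far below. Usp18, the protease that removes ISG15 and also damps the interferon receptor, had 37.9, 236 and 16 normalised reads in TSP2KO 1, TSP2KO 2 and TSP2KO 3, against 554 and 929.7 in WT 1 and WT 2 and 215 in the library labelled WT 3 (log2 fold change -3.16 with SE 0.97, adjusted p = 0.333 by limma). This was among the widest ranges, with the highest library 58.0-fold above the lowest. Herc6, the ligase for ISG15 in mice, had 219, 321 and 167 normalised reads in TSP2KO 1, TSP2KO 2 and TSP2KO 3, against 381 and 616 in WT 1 and WT 2 and 321 in the library labelled WT 3 (log2 fold change -0.89 with SE 0.33, adjusted p = 0.438 by limma). Its values in TSP2KO 2 and the library labelled WT 3 were the same to within 1 read.

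The effectors of virus replication and release differed in level. Bst2, tetherin, which holds budding virions at the cell surface, had 187, 509 and 142 normalised reads in TSP2KO 1, TSP2KO 2 and TSP2KO 3, against 735 and 1231 in WT 1 and WT 2 and 379 in the library labelled WT 3 (log2 fold change -1.55 with SE 0.57, adjusted p = 0.435 by limma). The low pair was again TSP2KO 1 and TSP2KO 3, and the groups overlapped through TSP2KO 2. Rsad2 encodes viperin, an enzyme that makes a chain-terminating nucleotide, and had 14.9, 8.39 and 8.01 normalised reads in TSP2KO 1, TSP2KO 2 and TSP2KO 3, against 31.4 and 47.9 in WT 1 and WT 2 and 39.1 in the library labelled WT 3 (log2 fold change -1.85 with SE 0.41, adjusted p = 0.19 by limma). Here TSP2KO 2 was level with TSP2KO 3 and the library labelled WT 3 lay between WT 1 and WT 2, so the groups did not overlap. Cmpk2, a nucleotide kinase gene beside Rsad2 on chromosome 12, was under the filter, from 0 to 5.59 normalised reads in TSP2KO and 7.06 to 23.7 in WT.

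The Mx genes encode dynamin-like GTPases, and the deposited table types both as polymorphic pseudogenes. Mx2 had 1.72, 8.39 and 1.78 normalised reads in TSP2KO 1, TSP2KO 2 and TSP2KO 3, against 24.2 and 56.9 in WT 1 and WT 2 and 11.5 in the library labelled WT 3 (log2 fold change -2.67 with SE 0.78, adjusted p = 0.311 by limma). Mx1 was under the filter, from 0.890 to 4.48 normalised reads in TSP2KO and 5.67 to 12.8 in WT. Groups did not overlap for either gene, though the levels were low.

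Parp9, Dtx3l and Parp14, which act in ADP-ribosylation and ubiquitination, lie together on chromosome 16. Parp9 had 372, 808 and 452 normalised reads in TSP2KO 1, TSP2KO 2 and TSP2KO 3, against 1431 and 1797 in WT 1 and WT 2 and 712 in the library labelled WT 3 (log2 fold change -1.25 with SE 0.42, adjusted p = 0.376 by limma). Dtx3l, the ubiquitin ligase that partners PARP9, had 496, 1065 and 589 normalised reads in TSP2KO 1, TSP2KO 2 and TSP2KO 3, against 1669 and 2346 in WT 1 and WT 2 and 832 in the library labelled WT 3 (log2 fold change -1.13 with SE 0.44, adjusted p = 0.452 by limma). The level of Dtx3l was 1.30- to 1.33-fold that of Parp9 in TSP2KO and 1.17- to 1.31-fold in WT, a narrow span. They run head to head from opposite strands, Parp9 at chr16:35938470-35972605 and Dtx3l at chr16:35926511-35939151, and overlap by 682 bases. The counting's strand setting is not given in the sources used here, so reads in the overlap cannot be assigned. Parp14, an ADP-ribosyltransferase, had 329, 519 and 246 normalised reads in TSP2KO 1, TSP2KO 2 and TSP2KO 3, against 872 and 1072 in WT 1 and WT 2 and 627 in the library labelled WT 3 (log2 fold change -1.27 with SE 0.32, adjusted p = 0.249 by limma), with no overlap of the groups. Without the library labelled WT 3, Parp9 was -1.64 (SE 0.33, adjusted p = 0.0421 by limma) and Parp14 was -1.48 (SE 0.32, adjusted p = 0.0481 by limma), both past the threshold, while Dtx3l had an adjusted p = 0.0523 by limma.

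Trim30a, a mouse TRIM protein that restrains Toll-like receptor signalling, had 51.7, 142 and 65.0 normalised reads in TSP2KO 1, TSP2KO 2 and TSP2KO 3, against 424 and 767 in WT 1 and WT 2 and 142 in the library labelled WT 3 (log2 fold change -2.18 with SE 0.64, adjusted p = 0.317 by limma). Without the library labelled WT 3 it had the smallest adjusted p of the list, at -2.85 (SE 0.47, adjusted p = 0.0257 by limma). TSP2KO 2 and the library labelled WT 3 were level. Of the 50-base windows of its transcripts, 5.98% are shared with Trim30d.

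The remaining 5 genes ran from the steepest to nearly the flattest. Ifi44, an interferon-induced cytoplasmic protein, ranged over 3.56 to 34.1 normalised reads in TSP2KO and 68.6 to 214 in WT (log2 fold change -3.39 with SE 0.77, adjusted p = 0.207 by limma), with no overlap. Its highest library was 60.1-fold above its lowest, the widest range among the 32 genes with no library at 0. Rtp4, which encodes a receptor transporter protein, had 48.6, 344 and 41.9 normalised reads in TSP2KO 1, TSP2KO 2 and TSP2KO 3, against 1003 and 1506 in WT 1 and WT 2 and 375 in the library labelled WT 3 (log2 fold change -3.20 with SE 0.86, adjusted p = 0.269 by limma). The groups did not overlap for Rtp4, although TSP2KO 2 came close to the library labelled WT 3. Of the 50-base windows of its transcripts 11.6% were in those of another gene, as were 12.5% for Herc6 and 7.14% for Ifit1, so these values may hold reads of other genes. Xaf1, a gene of apoptosis control, had 124, 392 and 137 normalised reads in TSP2KO 1, TSP2KO 2 and TSP2KO 3, against 520.2 and 820.3 in WT 1 and WT 2 and 269 in the library labelled WT 3 (log2 fold change -1.36 with SE 0.55, adjusted p = 0.482 by limma). It overlapped, with TSP2KO 2 above the library labelled WT 3.

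Ifi27, a mitochondrial protein induced by interferon, was the most abundant of the 34 per length, with 1481 normalised reads per kb of annotated exon averaged over the 6 libraries. In TSP2KO it averaged 1193 per kb and in WT 1769, against 177 in TSP2KO and 1193 in WT for Ifit3, and 309 in TSP2KO and 866 in WT for Bst2. It had 1188, 2138 and 1927 normalised reads in TSP2KO 1, TSP2KO 2 and TSP2KO 3, against 2749 and 3328 in WT 1 and WT 2 and 1707 in the library labelled WT 3 (log2 fold change -0.56 with SE 0.32, adjusted p = 0.667 by limma). Ifi35, which binds other interferon-induced proteins, had 359.6, 574 and 510.2 normalised reads in TSP2KO 1, TSP2KO 2 and TSP2KO 3, against 589 and 784 in WT 1 and WT 2 and 474 in the library labelled WT 3 (log2 fold change -0.35 with SE 0.26, adjusted p = 0.736 by limma). For both, WT 2 and WT 1 were still on top, but TSP2KO 2 and TSP2KO 3 lay above the library labelled WT 3 and the range was under 3-fold.

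**Figure D3:**
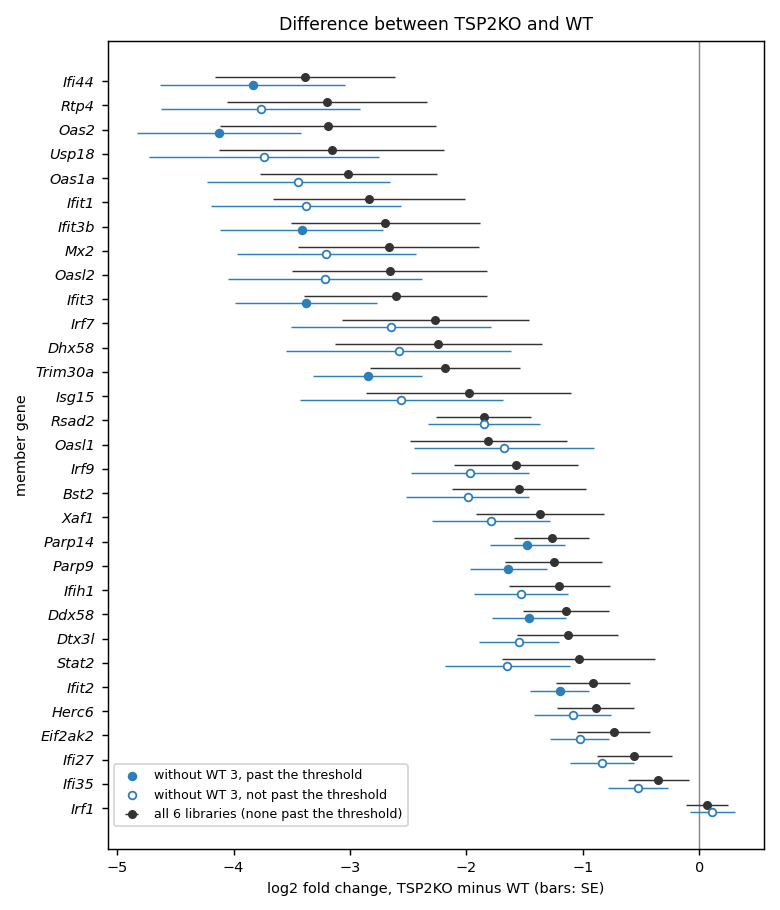
Log2 fold change (TSP2KO minus WT, with SE) of the 31 tested genes, with all 6 libraries (black) and without the library labelled WT 3 (blue, filled where the adjusted p was under 0.05). With all libraries the values run from -3.39 (Ifi44) to 0.07 (Irf1) and none passed; 9 passed without that library.

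The rest of the pathway was taken from lists of its parts. None of the 20 interferon ligand genes listed was analysed here. Of 11 receptor, kinase and STAT genes, 10 were tested and 9 had negative log2 fold changes (median -0.45), against 51.5% of all genes tested. With all libraries 0 of the 10 passed, against 0.0612% of all genes as lower and 0% as higher. In the fit leaving out the library labelled WT 3, 1 of these 10 passed as lower, against 2.75% of all genes. Ifnar1, a chain of the type I receptor, had 1271, 1857 and 1342 normalised reads in TSP2KO 1, TSP2KO 2 and TSP2KO 3, against 2397 and 1865 in WT 1 and WT 2 and 1668 in the library labelled WT 3 (log2 fold change -0.41 with SE 0.22, adjusted p = 0.644 by limma). Jak2, a kinase of the interferon gamma receptor, and Ifngr1, a chain of that receptor, had log2 fold changes of -0.47 and -0.58.

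Among 16 tested genes of sensing and induction, 11 had negative and 5 positive values (median -0.35), where 51.5% of all genes tested were negative. Of the 16, 2 were under a mean of 10 in TSP2KO and were tested through their WT values, so the sign of these 2 came with the filter. None passed with all libraries, against 0.0612% of all genes as lower and 0% as higher. Without the library labelled WT 3 0 passed, against 2.75% and 2.43%. At such shares 0 of 16 does not set the list apart from all genes. Sting1, the adaptor downstream of the DNA sensor cGAS, had 547, 599 and 674 normalised reads in TSP2KO 1, TSP2KO 2 and TSP2KO 3, against 916 and 930.5 in WT 1 and WT 2 and 1235 in the library labelled WT 3 (log2 fold change -0.75 with SE 0.19, adjusted p = 0.249 by limma). The library labelled WT 3 was the highest for Sting1, unlike most of the 34 genes. Zbp1, a sensor of Z-form nucleic acid that is itself induced by interferon, had 28.7, 169 and 12.5 normalised reads in TSP2KO 1, TSP2KO 2 and TSP2KO 3, against 522 and 1088 in WT 1 and WT 2 and 139 in the library labelled WT 3 (log2 fold change -3.40 with SE 1.05, adjusted p = 0.333 by limma), in the order of the interferon response genes. Tlr4 and Tlr7, Toll-like receptors for lipopolysaccharide and single-stranded RNA, had log2 fold changes of -0.65 and -2.79. Tlr7 had 0.575, 8.95 and 6.23 normalised reads in TSP2KO 1, TSP2KO 2 and TSP2KO 3, against 22.7 and 23.9 in WT 1 and WT 2 and 62.9 in the library labelled WT 3, and was tested through its WT values, as it was under a mean of 10 in TSP2KO. Of 13 tested genes that restrain the pathway, 10 had negative and 3 positive values (median -0.20). None of the 13 passed with or without the library labelled WT 3, against the same shares of all genes, which does not set this list apart either. Trex1, a DNA exonuclease, and Samhd1, a nucleotide hydrolase, had -0.67 and 0.47, and the phosphatase gene Ptpn6 and Socs3, a cytokine signalling inhibitor, -1.60 and -1.66.

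A further list of 40 interferon-induced genes outside the 34 had 37 tested. Of these, 34 had negative values (median -0.98), where 51.5% of all genes tested were negative. Of the 37, 2 had a TSP2KO mean under the filter and were tested through their WT values. The negative sign of these 2 thus came with the filter. None passed with all libraries, and 7 of the 37 passed as lower without the library labelled WT 3, against 2.75% of all genes. Ifi205 and Ifi203, of the DNA-binding HIN-200 family, had log2 fold changes of -3.42 and -3.46, and Mndal, of the same family, -1.91. Uba7, the activating enzyme for ISG15, had 151, 189.6 and 94.4 normalised reads in TSP2KO 1, TSP2KO 2 and TSP2KO 3, against 436 and 646 in WT 1 and WT 2 and 344 in the library labelled WT 3 (log2 fold change -1.71 with SE 0.34, adjusted p = 0.162 by limma). For these 4 genes, named for the smallest p of their list, the library labelled WT 3 lay above each TSP2KO library. That choice favours genes without overlap, and 8.27% of all genes tested were lower in TSP2KO without overlap. Groups overlapped for others of the list, such as Samd9l and Lgals3bp. Of 7 targets that lean to interferon gamma, 2 were tested. Cxcl10, a chemokine, had 23.6, 11.7 and 11.6 normalised reads in TSP2KO 1, TSP2KO 2 and TSP2KO 3, against 48.9 and 53.0 in WT 1 and WT 2 and 77.0 in the library labelled WT 3 (log2 fold change -1.91 with SE 0.40, adjusted p = 0.175 by limma), and Cd274, which encodes PD-L1, had a log2 fold change of -0.87. The library labelled WT 3 was the highest for Cxcl10. Ciita, the master regulator of MHC class II, lay between 0 and 1.12 normalised reads in the 6 libraries.

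**Figure D4:**
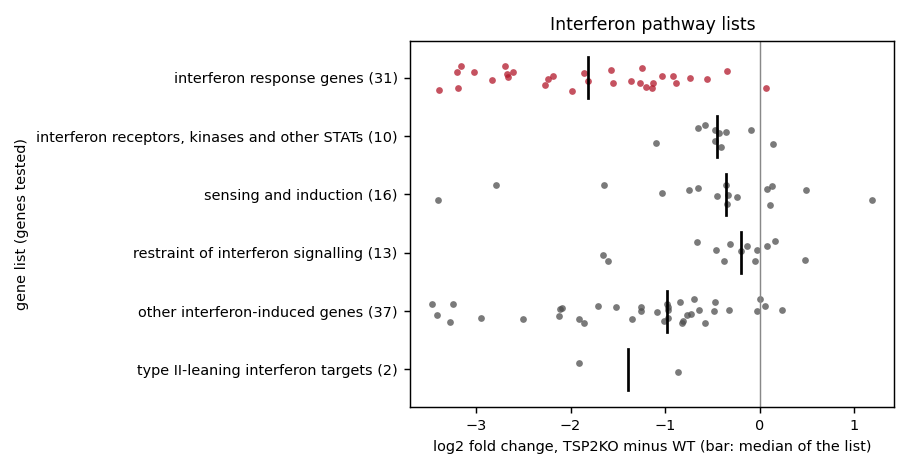
Log2 fold change (TSP2KO minus WT) of each tested gene of the interferon response list (red) and of the pathway lists (grey), with the median of each list as a black bar and the number of genes in brackets. The medians are -1.81 for the 34-gene list's tested members and -0.45, -0.35, -0.20, -0.98 and -1.39 for the lists from top to bottom.

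The genes most like the list in pattern were sought among 11487 other genes with a mean of at least 50, by Pearson's r between their log2 values and the list's mean standardised profile over the 6 libraries. Each r is a description, since all genes share these libraries and their differences in depth and marker levels. Among the 10 highest were Gbp3 (0.995), Zc3hav1 (0.993), H2-T23 (0.993), Irgm2 (0.991), Zbp1 (0.991), Apol9b (0.984), Usp2 (0.983), Ndrg1 (0.983) and Aldh1l1 (0.979). Gbp3 and Irgm2, interferon-inducible GTPases, and Zc3hav1, an antiviral zinc-finger protein, had WT 2 and WT 1 on top and TSP2KO 1 and TSP2KO 3 lowest. The library labelled WT 3 lay above TSP2KO 2 for Gbp3 and Zc3hav1 and below it for Irgm2. Gbp3 had 97.9, 320.0 and 97.0 normalised reads in TSP2KO 1, TSP2KO 2 and TSP2KO 3, against 876 and 1290.1 in WT 1 and WT 2 and 345 in the library labelled WT 3. Among the 31 genes themselves, r with the profile of the others ran from -0.13 for Irf1 to 0.996 for Ifit1.

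The levels of other cell types were set beside these values. In bulk RNA, fewer cells of a type and less RNA per cell cannot be told apart. Of 17 macrophage markers, 16 were tested and all 16 had negative log2 fold changes (median -2.58). Tyrobp, Fcer1g, Itgam, Ptprc and Msr1 were under a mean of 10 in TSP2KO and were tested through their WT values, so the sign of these 5 came with the filter. With all libraries 2 of the 16 passed as lower, C1qb and Msr1, against 0.0612% of all genes, and with the library labelled WT 3 left out 13 did, against 2.75%. Msr1 is 1 of those 5, and Fcer1g, Itgam, Ptprc and Msr1 are among the 13. These counts thus include genes whose direction came with the filter and cannot be weighed against those shares. The summed level of the 17 markers was 794, 963 and 911 normalised reads in TSP2KO 1, TSP2KO 2 and TSP2KO 3, against 6568 and 5513 in WT 1 and WT 2 and 3770 in the library labelled WT 3. Aif1 had few reads throughout, at 0 in the 3 TSP2KO libraries and at 2.06 and 3.53 in WT 1 and WT 2 and 0.641 in the library labelled WT 3. The mean log2 level of the tested macrophage markers, centred on the 6 libraries, was -1.32, -1.18 and -1.29 in TSP2KO 1, TSP2KO 2 and TSP2KO 3, against 1.36 and 1.21 in WT 1 and WT 2 and 1.21 in the library labelled WT 3. The interferon response genes stood at -1.28, 0.12 and -1.58 in TSP2KO, against 0.99 and 1.65 in WT 1 and WT 2 and 0.10 in the library labelled WT 3. In the library labelled WT 3, single macrophage markers lay below or above the other WT libraries. Lyz2, a lysozyme gene, had 398, 445 and 595 normalised reads in TSP2KO 1, TSP2KO 2 and TSP2KO 3, against 4557 and 3688 in WT 1 and WT 2 and 1758 in the library labelled WT 3. Cd68, a lysosomal protein gene, had 68.4, 139.9 and 35.6 normalised reads in TSP2KO 1, TSP2KO 2 and TSP2KO 3, against 109 and 149 in WT 1 and WT 2 and 259 in the library labelled WT 3.

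**Figure D5:**
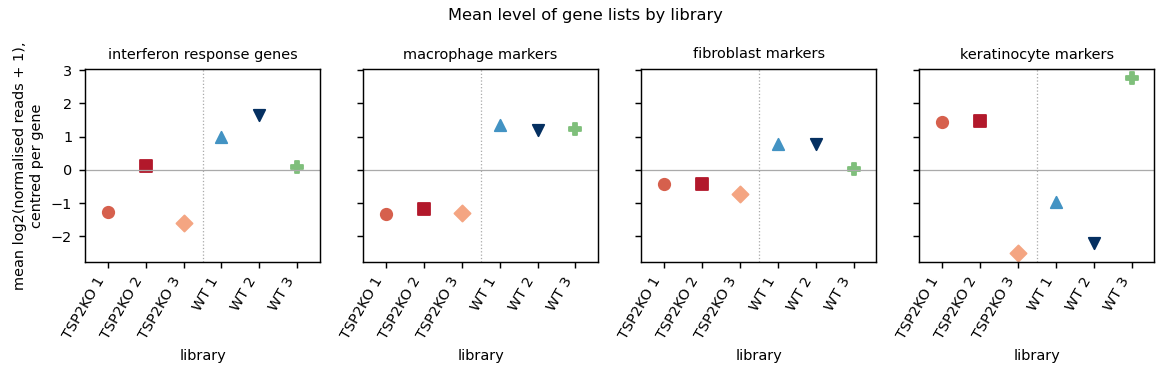
Mean log2(normalised reads + 1), centred per gene on the 6 libraries, of the interferon response genes and of macrophage, fibroblast and keratinocyte markers, with 1 symbol per library. The mean of the macrophage markers lies between -1.32 and -1.18 in TSP2KO and between 1.21 and 1.36 in WT, and the interferon response genes have 0.12 in TSP2KO 2 and 0.10 in the library labelled WT 3.

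Fibroblast markers were present in all libraries, with a summed level of 165125 to 263092 normalised reads in TSP2KO and 203923 to 389817 in WT, a sum carried by collagens, and none of the 9 at 0. Of the 9, 7 had negative log2 fold changes, against 51.5% of all genes tested, and 0 passed with all libraries, against 0.0612% as lower. Their mean centred level was -0.42, -0.43 and -0.73 in TSP2KO 1, TSP2KO 2 and TSP2KO 3, against 0.78 and 0.77 in WT 1 and WT 2 and 0.04 in the library labelled WT 3, so it was highest in WT 1 and WT 2, as were the interferon response genes. Dcn and Lum, proteoglycan genes, and Pdgfra, a growth factor receptor gene, were lower in TSP2KO without overlap, as were 8.27% of all genes tested. Their log2 fold changes were -2.80, -3.33 and -1.46. Groups overlapped for Col1a1, Col1a2, Col3a1, Pdgfrb, Thy1 and Vim, and Col1a1 and Vim had positive values, 0.08 and 0.18. Pdgfra was the 1 of the 9 that passed in the fit leaving out the library labelled WT 3, against 2.75% of all genes. Keratinocyte markers summed to 9685, 9382 and 436 in TSP2KO 1, TSP2KO 2 and TSP2KO 3, against 1249.9 and 479 in WT 1 and WT 2 and 29402 in the library labelled WT 3. Plasmacytoid dendritic cells make much type I interferon in the body. Of 5 markers 4 were in the table and 3 were tested. All 3 had negative values (median -0.42), against 51.5% of all genes tested. Ly6d, at -0.35 (SE 1.95), was 1.42 (SE 1.64) without the library labelled WT 3. It had 675 normalised reads there, against 25.8 and 9.41 in WT 1 and WT 2 and 2.67 to 256 in TSP2KO. Cox6a2 and Tcf4 stayed negative without that library, at -0.80 and -0.48. The sum of the 4, mostly Tcf4, which other cells express, was 1461 to 2416 in TSP2KO and 2064 to 2833 in WT. Endothelial markers summed to 2430.2, 2233 and 579.6 in TSP2KO 1, TSP2KO 2 and TSP2KO 3, against 1253 and 611 in WT 1 and WT 2 and 4873 in the library labelled WT 3. The sums of mast cell and melanocyte markers were also highest in the library labelled WT 3. Kit made up 875 of the mast cell sum of 933 there. The melanocyte marker Mlana went the other way, at 107 in WT 2 and 36.6 in the library labelled WT 3. Of 7 T and NK cell markers 2 were in the table, at a sum of 13.8 to 49.9 in TSP2KO and 1.96 to 11.5 in WT. The part of these cell types in the difference was not tested.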

How the data were processed

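The deposited values are a normalised signal per gene, named normalised counts by the authors, in 6 columns with 1 per library. The submitters' processing notes name mm10 as build and the tools STAR, Partek and DESeq2, without saying what each did. Counting options and strand setting were not given in the sources used here. Relative to the geometric mean of the 6, the median gene of a library stood at 0.997 to 1.02. Low values fell on steps worth 1 read, but 68.6% to 73.9% of values above 0 were whole multiples of it within 0.02 of a read, so counts were not recovered and no count model was fitted. Totals divided by the step gave the estimated depths. Column names gave genotype and number, by which samples were matched, since the suffixes differ from the labels.

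Values were taken as log2(value + 1), which understates the change of low genes. Genes with a mean of at least 10 were compared, TSP2KO against WT, with limma 3.58.1 in R 4.3.3 (mean-variance trend, two-sided, Benjamini-Hochberg over all genes tested). The fit was checked on simulated data with known changes. The interferon response genes, the pathway lists and the marker lists were chosen with earlier results of these data known. Each interferon response gene may be named, with all 6 values where its mean was at least 100 or it was among the 3 lowest tested, and up to 4 genes of each pathway list with the smallest p; Gbp3, Irgm2 and Zc3hav1 come from the 10 most alike, and Aif1, Tcf4, Ciita and the other single marker genes were named after their values were seen. Mb21d1 and Tmem173 were looked up by their newer symbols Cgas and Sting1. Exon lengths are unions of GENCODE M21 exons, and 96.4% of the table's genes had its coordinates after 1 base was taken off the stop. Shared sequence is the share of a gene's 50-base transcript windows found in transcripts of other genes there. Results of some pathway genes are not reported here.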

Additional observations from a re-analysis of the deposited data

How the results depend on the processing

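With 3 libraries a group, no interferon response gene passed as lower or higher under pseudocounts of 0.1 or 10, no filter, a mean of at least 100, TMM rescaling, no trend, limma-voom or the replicate block (smallest adjusted p 0.0907 by limma, with the block). With 1 library left out, 0 to 9 passed as lower, the 9 without the library labelled WT 3, and 0 as higher. Their median log2 fold change of -1.81 lay between -1.95 and -1.36 under the other settings and between -2.13 and -1.28 with 1 library left out. Of 428 recomputed fold changes of single genes, 1 changed direction: Irf1, at 0.07, was -0.0040 without TSP2KO 2 and up to 0.19 with another library left out. Over all genes, 9 were lower by limma. This count was 0 with limma-voom, a mean of at least 100, no filter, a pseudocount of 0.1 or the replicate block, 15 without the trend and 14 with a pseudocount of 10; the cause was not tested. It ran from 0 to 404 with 1 library left out, and the higher genes from 0 to 357. By limma, 896 genes were lower and 538 higher at an unadjusted p under 0.05, and by limma-voom 707 and 733. Over all genes tested, same-numbered libraries did not deviate together (correlations across genes of -0.42, -0.25 and -0.40). None correlated best with its own number, so they are not treated as pairs. Taken by themselves, the interferon response genes did share an order of numbers. Their mean centred level was 0.12, -1.28 and -1.58 in TSP2KO 2, TSP2KO 1 and TSP2KO 3. It was 1.65, 0.99 and 0.10 in WT 2, WT 1 and the library labelled WT 3. The further list of interferon-induced genes had the same order. Its level was -0.11, -0.90 and -0.98 in TSP2KO 2, TSP2KO 1 and TSP2KO 3. In WT 2, WT 1 and the library labelled WT 3 it was 1.04, 0.65 and 0.29. The block lowered the SE of Ifit1 from 0.82 to 0.31 and raised that of Rsad2 from 0.41 to 0.52. Values of a few reads, as for Cmpk2, Mx1 and Oas3, limit what depth can show.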
